A study of Mus musculus with 11 samples.

Results

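A list of 10 genes of V(D)J recombination and of the end joining that completes it were followed across 3 compound groups of a mouse leukaemia line. The list held Dntt, Rag1, Rag2, Lig4, Xrcc4, Xrcc5, Xrcc6, Dclre1c, Prkdc and Nhej1, matched by gene symbol. It was chosen with earlier results of these data known. Each gene was represented by its brightest probe set that carries a single gene symbol, which gave 8 measured members of 10 listed, among 22180 genes. Dclre1c, the gene of the hairpin-opening nuclease Artemis, had no probe set under its symbol or Entrez identifier in the annotation used here. Rag1 had only a probe set that the annotation assigns to both Rag1 and its neighbour Iftap, so it counts as not measured.

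The cells were line 720, mouse leukaemia cells of the T-cell acute lymphoblastic type (T-ALL) that the labels trace to a Tcf12+/- mouse with a Tal1 transgene. The Lck promoter, which is active in the T lineage, drives that transgene. All groups share this genotype and an exposure of 8 h to a compound that the labels call a Runt domain inhibitor. RUNX transcription factors contact DNA through their Runt domain. The groups were AI-9-54 at 50 µM (4 arrays), AI-8-45 at 100 µM (4 arrays) and AI-7-54 at 100 µM (3 arrays, replicates 1, 3 and 4). Every difference sets 1 compound against another, since vehicle-treated cells were not analysed here. AI-8-45 and AI-7-54 were given at the same dose. In both comparisons with AI-9-54 the doses differ, and compound and dose cannot be told apart.

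V(D)J recombination assembles antigen receptor genes in developing lymphocytes. The RAG1 and RAG2 proteins cut the DNA beside the gene segments, and general repair proteins rejoin the ends. Xrcc6 and Xrcc5 encode Ku70 and Ku80, the ring that grips a broken end, and Prkdc encodes the kinase DNA-PKcs that Ku recruits. Artemis opens the hairpins at the coding ends. Lig4 encodes DNA ligase IV, which seals the break together with its partner XRCC4, and Nhej1 encodes XLF, which helps to align the ends. Dntt encodes terminal deoxynucleotidyl transferase (TdT), which adds untemplated nucleotides at the junctions and is a classical marker of immature lymphocytes and of lymphoblastic leukaemia. The end-joining factors act in nearly all cells, whereas RAG and TdT belong to lymphocyte precursors.

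Promoter windows from RefSeq (build GRCm38.p6, 250 bases before to 50 after the annotated start) are shown for 4 genes. Dntt, Lig4 and Xrcc6 are the members lower after AI-9-54 in the results below, and Rag1 is the only listed gene whose window held a RUNX motif. Each window reads 5′ to 3′ on the strand of its gene, and capitals mark RUNX motifs (TGTGGT or TGCGGT) and E-boxes (CANNTG, the motif bound by E proteins and their TAL1 partners), both searched on both strands.
Dntt, chr19:41029025-41029324, plus strand: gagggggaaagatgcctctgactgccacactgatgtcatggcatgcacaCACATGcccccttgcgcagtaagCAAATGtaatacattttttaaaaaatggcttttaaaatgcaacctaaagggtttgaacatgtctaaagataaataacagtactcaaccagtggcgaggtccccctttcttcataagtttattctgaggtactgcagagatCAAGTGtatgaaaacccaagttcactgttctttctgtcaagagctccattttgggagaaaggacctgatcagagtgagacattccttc
Lig4, chr8:9977631-9977930, minus strand: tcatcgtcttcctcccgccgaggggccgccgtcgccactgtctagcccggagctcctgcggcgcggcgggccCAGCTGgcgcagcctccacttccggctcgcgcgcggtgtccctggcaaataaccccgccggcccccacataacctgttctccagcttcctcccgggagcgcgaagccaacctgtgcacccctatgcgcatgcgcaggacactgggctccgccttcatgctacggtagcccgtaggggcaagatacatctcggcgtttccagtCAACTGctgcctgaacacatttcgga
Xrcc6, chr15:82016119-82016418, plus strand: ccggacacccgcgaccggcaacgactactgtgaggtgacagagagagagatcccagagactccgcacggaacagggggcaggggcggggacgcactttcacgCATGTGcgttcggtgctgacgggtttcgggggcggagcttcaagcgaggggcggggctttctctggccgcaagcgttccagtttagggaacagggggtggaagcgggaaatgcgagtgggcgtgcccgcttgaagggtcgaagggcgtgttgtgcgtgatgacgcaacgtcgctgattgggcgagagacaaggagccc
Rag1, chr2:101649483-101649782, minus strand: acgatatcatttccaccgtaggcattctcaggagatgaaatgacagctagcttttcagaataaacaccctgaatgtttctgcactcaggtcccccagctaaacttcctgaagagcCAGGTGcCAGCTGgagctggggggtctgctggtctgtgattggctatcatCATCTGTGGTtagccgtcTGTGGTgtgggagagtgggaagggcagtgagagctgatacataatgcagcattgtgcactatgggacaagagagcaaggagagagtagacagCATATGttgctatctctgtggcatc

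RUNX motifs were absent from the Dntt, Lig4 and Xrcc6 windows and occurred 2 times in the Rag1 window, 81 and 67 bases before the start, where the upstream copy overlaps an E-box. Of 32851 promoter windows of the same length, 22.4% held a RUNX motif. E-boxes, present in 72.3% of all windows, numbered 3 in the Dntt window, 4 in the Rag1 window, 2 in the Lig4 window and 1 in the Xrcc6 window. Lig4 has another annotated start, whose window also held no RUNX motif and 2 E-boxes. The remaining windows (Rag2, Xrcc4, Xrcc5, Dclre1c and Nhej1) held no RUNX motif either, and no Prkdc window was matched. The CRE core TGACGT, found in 7.51% of all windows, was in none of the members' windows. A match is a description of the letters and not a site.

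Values are log2 probe set levels after RMA, the array summary method named in the submitters' processing notes, and array medians lay between 6.88 and 6.95 over genes. Markers of the T lineage (10 of 12 measured) had levels between 7.92 and 13.0, all above the median gene at 6.91, while 1 of 9 B-lineage, 2 of 8 myeloid, 2 of 4 erythroid and 3 of 5 natural killer markers lay above it. The mean of the T-lineage markers was 10.90 to 10.96 on the AI-9-54 arrays, 10.94 to 11.11 on the AI-8-45 arrays and 11.08 to 11.25 on the AI-7-54 arrays, and its part in the results below was not tested. B-lineage means, of interest because B-cell precursors also carry RAG and TdT, were 5.87 to 6.02, 5.83 to 5.96 and 5.88 to 5.91 for AI-9-54, AI-8-45 and AI-7-54. Along the second principal component of all genes (19.6% of the variance), replicates 1 and 2 lay apart from replicates 3 and 4 in every group. Values within these replicate sets therefore stand beside the differences of Dntt, Rag2, Lig4 and Xrcc6. Against AI-7-54, which has no replicate 2 here, each value for replicates 1 and 2 rests on AI-7-54 replicate 1 alone. Replicates 3 and 4 thus weigh more in the AI-7-54 means than in the other means. Without a term for the replicate set, differences from AI-7-54 carry part of that separation and can lie outside both values within the sets. The labels do not say that replicates were separate cultures, so p-values measure the spread between arrays, which may be technical. In bulk RNA, fewer cells with a transcript and less transcript per cell cannot be told apart.

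Dntt had the widest range of the 8 measured members. Its level was 10.48, 10.41, 9.45 and 9.73 on AI-9-54 replicates 1 to 4, against 11.31, 11.18, 10.76 and 10.90 on AI-8-45 replicates 1 to 4, and 11.64, 11.30 and 11.31 on AI-7-54 replicates 1, 3 and 4. All 4 AI-9-54 arrays lay below every other array, and the AI-8-45 and AI-7-54 arrays overlapped. Within each compound, replicates 3 and 4 lay below replicates 1 and 2 where both were present. The means were 10.02 ± 0.51 (SD, n = 4) for AI-9-54, 11.04 ± 0.25 (n = 4) for AI-8-45 and 11.41 ± 0.19 (n = 3) for AI-7-54.

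**Figure D1:**
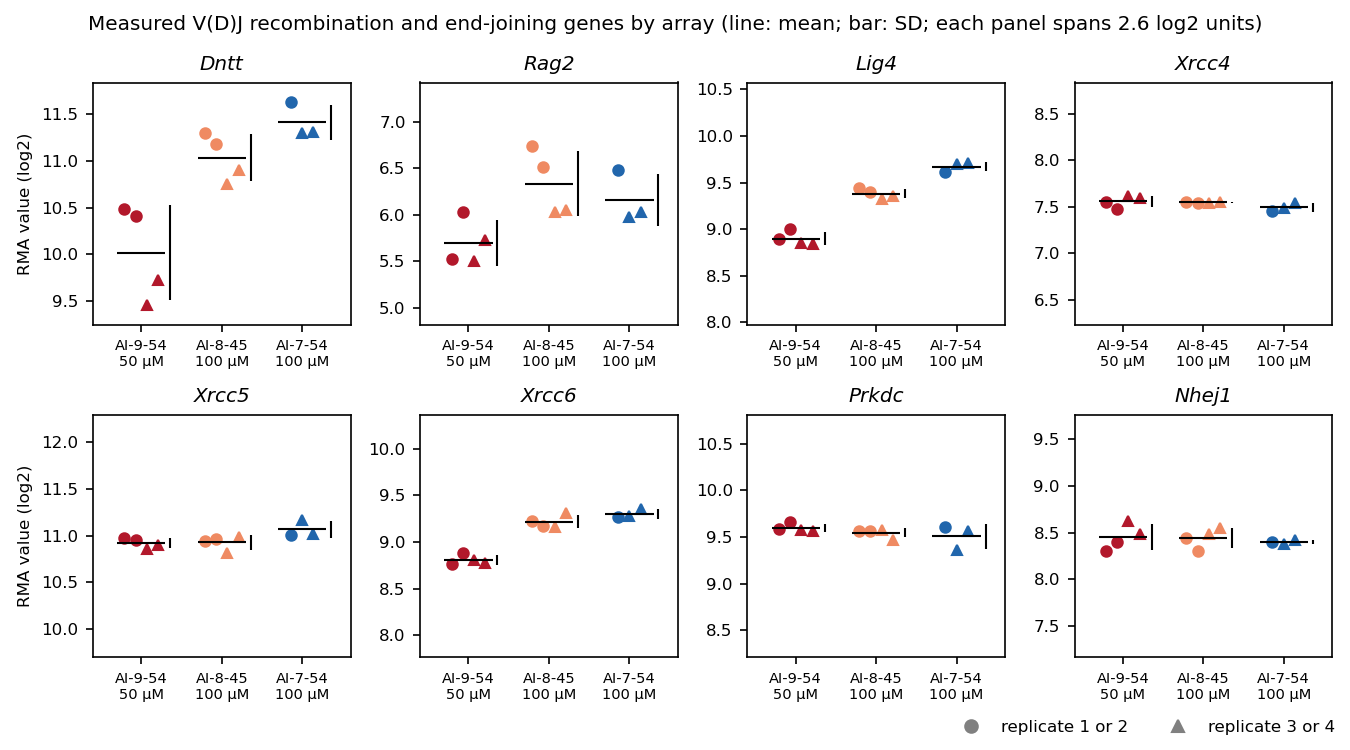
RMA level (log2, vertical axis) of the 8 measured members on each array, by compound and dose. Circles are replicates 1 and 2, triangles replicates 3 and 4, lines are group means and bars are SD, and every panel spans the same range. Dntt, Lig4 and Xrcc6 lie lowest on the AI-9-54 arrays, while Xrcc4, Prkdc and Nhej1 overlap between all groups.

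AI-8-45 and AI-7-54, both at 100 µM, form the matched-dose comparison. Of the 8 measured members, 1 was lower, Lig4, and 0 were higher in limma's test at an adjusted p under 0.05, where 5.66% of all genes were called (2.13% higher and 3.53% lower). The groups did not overlap for 2 of 8 members, against 15.9% of all genes. At an unadjusted p under 0.05 there were 2, Lig4 and Xrcc5, both lower, where 16.7% of all genes were past that level. The median difference of the members was -0.023, against 0.0014 over all genes. Of the 10 measured T-lineage markers Cd5 alone was called, lower (-0.69, adjusted p 0.0153), with 2 lower and 0 higher at an unadjusted p under 0.05. Of the 5 natural killer markers Prf1 alone was called, higher (0.45, adjusted p 0.00575). Gzma of that list stood at -0.23 (adjusted p 0.189), with 1 marker in each direction unadjusted. No marker of the other lists was called, and the part of these markers was not tested.

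Lig4, the ligase gene, had levels of 9.44, 9.40, 9.32 and 9.36 on AI-8-45 replicates 1 to 4, against 9.61, 9.70 and 9.71 on AI-7-54 replicates 1, 3 and 4. No array of AI-8-45 reached the AI-7-54 range. The log2 difference was -0.29 ± 0.05 (SE, limma adjusted p 0.00545), or 1.23-fold lower. Replicates 1 and 2 alone gave -0.19, and replicates 3 and 4 alone gave -0.36.

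Dntt differed by -0.38 on the log2 scale (95% interval -0.87 to 0.11, limma adjusted p 0.475) and did not pass the test. Replicates 1 and 2 alone gave -0.39, and replicates 3 and 4 alone gave -0.48. With the replicate set as a factor in the model it was -0.47 ± 0.11 (SE) and passed (adjusted p 0.0163). That factor was taken up because earlier results of these arrays had shown the separation.

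Rag2, the gene of the RAG1 partner, had a log2 difference of 0.17 (interval -0.23 to 0.58), with 0.15 for replicates 1 and 2 and 0.040 for replicates 3 and 4. The Ku genes stood at -0.081 for Xrcc6 (interval -0.19 to 0.030, with -0.067 for replicates 1 and 2 and -0.078 for replicates 3 and 4) and -0.14 for Xrcc5 (interval -0.26 to -0.018, adjusted p 0.213). The other intervals were narrow and included 0. They ran from -0.095 to 0.17 for Prkdc, from -0.042 to 0.15 for Xrcc4 and from -0.12 to 0.20 for Nhej1.

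After AI-9-54 at 50 µM, Dntt, Lig4 and Xrcc6 were lower than after AI-7-54 at 100 µM. These were 3 of the 8 measured members, with 0 higher, where limma called 14.2% of all genes (6.87% higher and 7.29% lower). At an unadjusted p under 0.05 there were 5, all lower, against 24.4% of all genes, the added ones being Rag2 and Xrcc5. The groups did not overlap for 4 of 8 members, against 23.2% of all genes. The median of the members was -0.30 and that of all genes -0.0014. In the same comparison 3 of the 10 T-lineage markers were lower (Cd2 by -0.81, Cd5 by -0.60 and Thy1 by -0.50), and of the 5 natural killer markers Prf1 was higher (0.47) and Gzma lower (-0.39), while 0 B-lineage, myeloid or erythroid markers passed (1 higher, 1 in each direction and 1 lower at an unadjusted p under 0.05). At that unadjusted level the T-lineage markers had 3 lower and 1 higher. The part of all these markers in the members' differences was not tested.

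Dntt stood lower, with a difference of -1.40 ± 0.23 on the log2 scale (SE, limma adjusted p 0.00132), which is 2.63-fold, and 0.0812% of all genes differed by more. Within replicates 1 and 2 the difference was -1.19, and within replicates 3 and 4 it was -1.71. Lig4 had 8.892, 9.001, 8.854 and 8.844 on AI-9-54 replicates 1 to 4, all below the AI-7-54 values given above. Its difference of -0.78 ± 0.05 (adjusted p 1.91e-06) amounts to 1.71-fold and had the smallest p among the members. Replicates 1 and 2 gave -0.67 and replicates 3 and 4 gave -0.85.

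Xrcc6, the Ku70 gene, had 8.77, 8.89, 8.80 and 8.77 on AI-9-54 replicates 1 to 4, against 9.23, 9.17, 9.16 and 9.32 on AI-8-45 replicates 1 to 4, and 9.27, 9.28 and 9.36 on AI-7-54 replicates 1, 3 and 4. The AI-9-54 arrays were the lowest, and the AI-8-45 arrays overlapped those of AI-7-54. Against AI-7-54 the difference was -0.49 ± 0.05 (SE, limma adjusted p 4.96e-05), or 1.41-fold lower, with -0.44 within replicates 1 and 2 and -0.53 within replicates 3 and 4.

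Its partner Xrcc5, the Ku80 gene, had 10.97, 10.95, 10.86 and 10.90 on AI-9-54 replicates 1 to 4, against 11.01, 11.17 and 11.02 on AI-7-54 replicates 1, 3 and 4. The arrays did not overlap, but the difference of -0.15 (interval -0.27 to -0.023) missed the threshold (adjusted p 0.121). Both Ku subunits form 1 dimer in the cell, and on these arrays the intervals of their differences did not overlap.

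Prkdc, Xrcc4 and Nhej1 did not pass. The DNA-PKcs gene Prkdc had levels of 9.57 to 9.66 after AI-9-54, against 9.36 to 9.61 after AI-7-54, with a difference of 0.087 (interval -0.043 to 0.22). The ligase partner gene Xrcc4 had levels of 7.47 to 7.62 after AI-9-54, against 7.45 to 7.55 after AI-7-54, with a difference of 0.064 (interval -0.033 to 0.16). That interval excludes the size of the Lig4 difference. The XRCC4 protein stabilises DNA ligase IV, but these values are of RNA and no protein was measured. The XLF gene Nhej1 had levels of 8.30 to 8.62 after AI-9-54, against 8.38 to 8.42 after AI-7-54, with a difference of 0.051 (interval -0.11 to 0.21).

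Rag2 was dim, with 5.53, 6.03, 5.50 and 5.73 on AI-9-54 replicates 1 to 4, against 6.74, 6.52, 6.03 and 6.05 on AI-8-45 replicates 1 to 4, and 6.48, 5.97 and 6.03 on AI-7-54 replicates 1, 3 and 4. Each group mean was under the median gene of the arrays, and without a measured background its differences are not turned into folds. The difference between AI-9-54 and AI-7-54 was -0.46 (interval -0.87 to -0.057, adjusted p 0.139), with -0.70 within replicates 1 and 2 and -0.38 within replicates 3 and 4. With the replicate set in the model it passed, at -0.53 (adjusted p 0.00946).

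The probe set assigned to both Rag1 and Iftap had 6.64, 6.76, 6.71 and 6.50 on AI-9-54 replicates 1 to 4, against 7.60, 7.50, 7.25 and 7.44 on AI-8-45 replicates 1 to 4, and 7.78, 7.61 and 7.55 on AI-7-54 replicates 1, 3 and 4. The AI-9-54 arrays lay below all others, and AI-8-45 overlapped AI-7-54. It cannot be assigned to 1 gene here and was not tested. The probe set of Iftap alone was dim, between 4.98 and 5.20 on all arrays, as was another shared by Rag2 and Iftap, between 4.12 and 4.54.

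**Figure D2:**
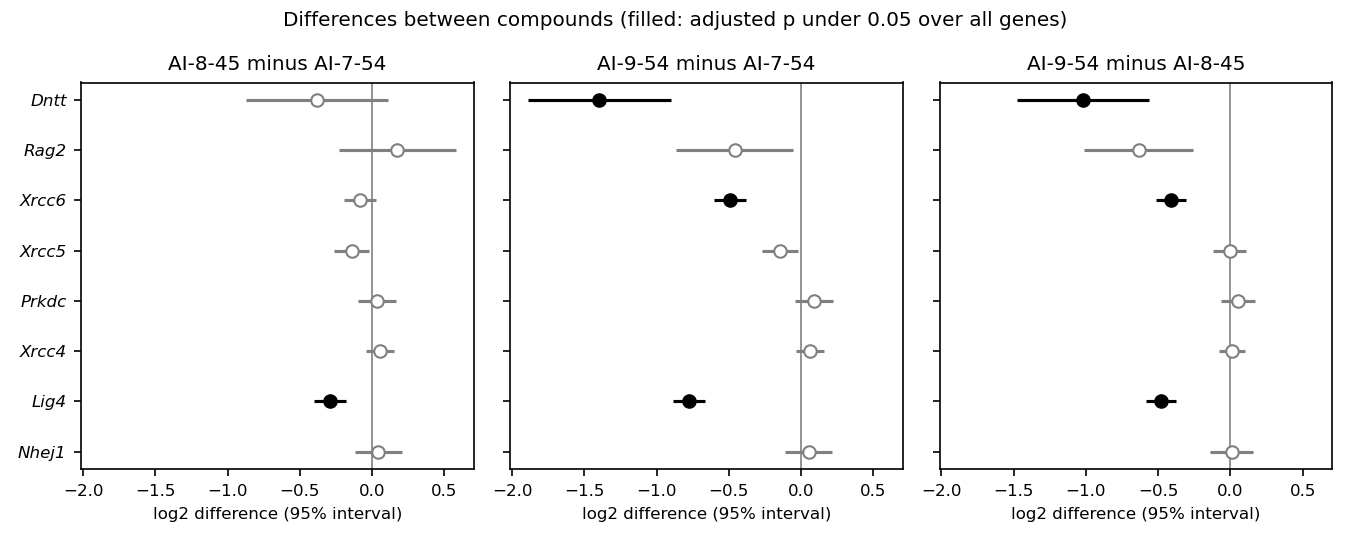
Log2 differences of the 8 measured members (rows) in the 3 comparisons (panels), with 95% intervals from limma on all arrays. Filled points passed at an adjusted p under 0.05 over all genes. Dntt, Lig4 and Xrcc6 are filled in both comparisons with AI-9-54, and Lig4 alone in AI-8-45 minus AI-7-54.

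AI-9-54 at 50 µM was also set against AI-8-45 at 100 µM, a comparison that shares its AI-9-54 arrays with the previous one. Dntt, Lig4 and Xrcc6 were again the members lower, 3 of 8 with 0 higher, where limma called 1.31% of all genes (0.708% higher and 0.600% lower). At an unadjusted p under 0.05 there were 4, all lower, against 11.4% of all genes, the added one being Rag2. The groups did not overlap for 3 of 8 members, against 6.67% of all genes. Of the 10 T-lineage markers Thy1 alone was called, lower (-0.36, adjusted p 0.00359), with 3 lower and 1 higher at an unadjusted p under 0.05. Cd2 stood at -0.55 (adjusted p 0.0582) and Cd28 at 0.24 (adjusted p 0.114). The part of these markers was not tested.

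Dntt differed by -1.02 ± 0.21 (SE, limma adjusted p 0.0368), a 2.03-fold lower level, with 8 genes of 22180 differing by more. Replicates 1 and 2 alone gave -0.80, and replicates 3 and 4 alone gave -1.24. Leaving out arrays one at a time ended the call in 8 of 11 fits (adjusted p 0.0563 to 0.122), namely without AI-7-54 replicate 3 or 4, any AI-8-45 array, or AI-9-54 replicate 3 or 4. It was also lost with only the 2 groups in the fit (adjusted p 0.0855), while a factor for the replicate set left it called (adjusted p 0.000177).

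Lig4 differed by -0.48 ± 0.05 (SE, limma adjusted p 0.000348), with -0.47 within replicates 1 and 2 and -0.49 within replicates 3 and 4. Xrcc6 differed by -0.41 ± 0.05 (adjusted p 0.00108), with -0.37 and -0.45 within these sets. Both kept their calls with any 1 array left out. In fits on replicates 1 and 2 alone both missed the threshold (adjusted p 0.139 for Lig4 and 0.184 for Xrcc6), as did Xrcc6 on replicates 3 and 4 alone (adjusted p 0.0542). Rag2 differed by -0.64 (interval -1.01 to -0.26, adjusted p 0.114), with -0.85 and -0.42 in these sets, and passed once the replicate set was a factor (adjusted p 0.00846).

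The remaining 4 members lay close to 0 between AI-9-54 and AI-8-45. Xrcc5 differed by -0.0055 (interval -0.12 to 0.11), Prkdc by 0.051 (interval -0.069 to 0.17), Xrcc4 by 0.0087 (interval -0.081 to 0.098) and Nhej1 by 0.0075 (interval -0.14 to 0.16). All 4 intervals include 0.

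Dntt was then set against the general end-joining factors as a group. The mean of the 6 measured factors (Lig4, Xrcc4, Xrcc5, Xrcc6, Prkdc and Nhej1) was 9.04 ± 0.02 (SD, n = 4) after AI-9-54, 9.18 ± 0.03 (n = 4) after AI-8-45 and 9.24 ± 0.02 (n = 3) after AI-7-54. It differed by -0.20 between AI-9-54 and AI-7-54 and by -0.14 between AI-9-54 and AI-8-45. After this mean was subtracted on each array, Dntt was lower by a further -1.19 between AI-9-54 and AI-7-54 (interval -1.68 to -0.71, unadjusted p 0.00015 from limma) and by -0.88 between AI-9-54 and AI-8-45 (interval -1.33 to -0.43, unadjusted p 0.00103). Between AI-8-45 and AI-7-54 the relative difference was -0.31 (interval -0.80 to 0.17, unadjusted p 0.184), and it passed with a factor for the replicate set (-0.41, adjusted p 0.0261). Within replicates 1 and 2 and within replicates 3 and 4 the relative values were -1.0005 and -1.507 for AI-9-54 against AI-7-54, -0.66 and -1.10 for AI-9-54 against AI-8-45, and -0.34 and -0.41 for AI-8-45 against AI-7-54. The adjusted p were 0.0011, 0.0106 and 0.415 in that order, in fits where the subtraction moved all genes, so that 15217, 9150 and 1551 of them passed. The contrast is with an average and not with a uniform group: in both comparisons with AI-9-54, 2 of the 6 factors were lower and 4 did not pass, and between AI-8-45 and AI-7-54 it was 1 and 5.

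Dntt and the factors also differed in how their arrays spread within a compound. The SD of Dntt among the 4 AI-9-54 arrays was 0.51, against 0.072 for Lig4 and 0.054 for Xrcc6. It was 0.14 for Nhej1, 0.064 for Xrcc4, 0.050 for Xrcc5 and 0.045 for Prkdc. For Dntt the SD includes the separation of the replicate sets, with 10.48 and 10.41 on replicates 1 and 2 and 9.45 and 9.73 on replicates 3 and 4. As a description over 11 arrays that fall into compound groups, Pearson's r with Dntt was 0.91 for Lig4, 0.86 for Xrcc6, 0.76 for Rag2, 0.58 for Xrcc5, -0.25 for Prkdc, -0.52 for Nhej1 and -0.66 for Xrcc4. With each group's mean removed, which leaves that separation in, r was 0.56 for Lig4, 0.066 for Xrcc6, 0.60 for Rag2, 0.42 for Xrcc5 and 0.39 for Prkdc. It was -0.80 for Nhej1 and -0.73 for Xrcc4.

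Among the genes kept for this ranking, the 5 most like Dntt across the 11 arrays were the metal transporter gene Slc11a2 (r = 0.99), Heg1 (0.98), the growth regulator gene Myc (0.98), Ermp1 (0.97) and Frmd4a (0.97). Running most opposite were the long non-coding RNA Neat1 (-0.97), Neurl3 (-0.97), Exoc6b (-0.97), the ceramidase gene Acer2 (-0.97) and Fam241a (-0.97). With group means removed, the 3 most alike were Rnf14 (0.98), the chemokine gene Cxcl10 (0.98) and the activation marker gene Cd69 (0.98). Removing group means leaves in the separation of the replicate sets, whose part in these r was not tested. Between AI-9-54 and AI-7-54 these 3 stood at 0.19, 0.36 and 0.52, in the direction opposite to Dntt. These genes were picked by r from the 22180 after some were left out. Left out were receptor segments, olfactory and vomeronasal receptors, small RNAs, and predicted or clone symbols.

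Related repair lists were described next, by counts to be read against the shares of all genes given above for adjusted and unadjusted p. Among 15 of 18 end-joining accessory factors measured, AI-8-45 against AI-7-54 had 2 lower and 0 higher (3 lower and 1 higher at an unadjusted p under 0.05). These were the telomere and end-protection nuclease gene Dclre1b (-0.19, adjusted p 0.0254, call lost in 5 of 11 cases with 1 array left out) and the resection regulator gene Rif1 (-0.17, adjusted p 0.0362, lost in 6 of 11). AI-9-54 against AI-7-54 had 2 lower and 1 higher (3 lower and 5 higher unadjusted), Dclre1b (-0.29), Rif1 (-0.17, lost without AI-7-54 replicate 3 or 4) and the shieldin subunit gene Shld2 (0.28, adjusted p 0.00457). AI-9-54 against AI-8-45 had 0 called, with 1 higher and 1 lower at an unadjusted p under 0.05. The medians were 0.0065, 0.033 and 0.042 in these 3 comparisons. Over all genes, 5.66%, 14.2% and 1.31% were called in them, and 16.7%, 24.4% and 11.4% had an unadjusted p under 0.05.

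Of 14 genes of break sensing and RAG cofactors, all measured, 3 were lower and 0 higher between AI-8-45 and AI-7-54 (unadjusted, the same numbers). They were Rad50 (-0.22, lost in 5 of 11 cases), the break sensor gene Parp1 (-0.21, lost without AI-7-54 replicate 3 or 4) and Nbn (-0.18, adjusted p 0.0499, lost in 9 of 11). Rad50 and Nbn encode parts of the MRN complex that holds broken ends. Mre11a, the gene of its remaining part, was not called (-0.079, limma adjusted p 0.559). Between AI-9-54 and AI-7-54 only Parp1 passed in this list, at -0.28 (adjusted p 0.00119), with 4 lower and 0 higher unadjusted. Between AI-9-54 and AI-8-45 0 passed, with 1 higher and 1 lower at an unadjusted p under 0.05. Medians were -0.056, -0.092 and 0.0079. In the order of these medians, 5.66%, 14.2% and 1.31% of all genes were called, and 16.7%, 24.4% and 11.4% had an unadjusted p under 0.05.

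Alternative end joining, which works without Ku, had 8 of 9 genes measured. Its ligase gene Lig3 was lower between AI-9-54 and AI-7-54 (-0.30, adjusted p 0.0047), the only call of the list in the 3 comparisons, with 4 and 3 genes lower and 0 higher at an unadjusted p under 0.05 against AI-7-54 after AI-8-45 and AI-9-54, and 1 in each direction between AI-9-54 and AI-8-45. Of 12 measured homologous recombination genes of 16, Xrcc3 was lower after AI-8-45 (-0.27, adjusted p 0.00894) and after AI-9-54 (-0.21, adjusted p 0.013), each against AI-7-54. After AI-9-54 the tumour suppressor gene Brca2 (0.28, lost without AI-7-54 replicate 3), Rad51c (0.19, lost in 3 of 11 cases) and Rad51b (0.17, lost in 7 of 11) were higher than after AI-7-54. Brca2 was also higher after AI-9-54 than after AI-8-45 (0.27, adjusted p 0.0468, lost in 10 of 11). At an unadjusted p under 0.05 the recombination list had 0 higher and 1 lower for AI-8-45 against AI-7-54 (median -0.088), 4 higher and 1 lower for AI-9-54 against AI-7-54 (median 0.091), and 6 higher and 0 lower for AI-9-54 against AI-8-45 (median 0.11). For these comparisons in turn, 5.66%, 14.2% and 1.31% of all genes were called, and 16.7%, 24.4% and 11.4% had an unadjusted p under 0.05.

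**Figure D3:**
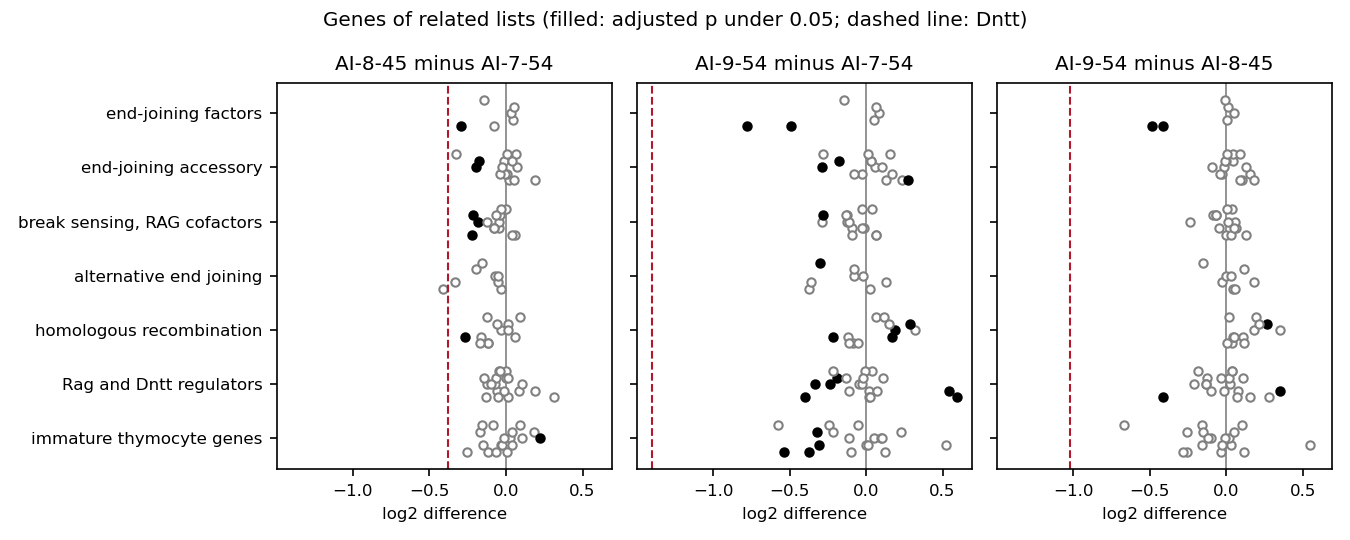
Log2 difference (horizontal axis) of each measured gene of 6 related lists and of the 6 end-joining factors (rows) for the 3 comparisons (panels). Filled points passed at an adjusted p under 0.05 over all genes, and the dashed line marks Dntt. In both comparisons with AI-9-54, no gene of these lists lies as low as Dntt.

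Factors known to bind or control Rag or Dntt regulatory DNA had 19 of 21 members measured. Between AI-8-45 and AI-7-54 0 passed, with 4 higher and 2 lower at an unadjusted p under 0.05. Between AI-9-54 and AI-7-54, 4 were lower and 2 higher (6 lower and 2 higher unadjusted). The higher genes were the forkhead factor gene Foxo1 (0.59, adjusted p 0.000578, and 0.26 when its probe sets are averaged), known to promote Rag transcription in B-cell precursors, and the chromatin organiser gene Satb1 (0.54, adjusted p 0.000179). The T-lineage factor gene Bcl11b (-0.40, adjusted p 0.000143) and Gata3 (-0.33, adjusted p 0.0404, lost in 5 of 11 cases) had the largest differences of the lower ones, followed by Myb (-0.23, adjusted p 0.0014) and Elf1 (-0.19, adjusted p 0.0143). Between AI-9-54 and AI-8-45, Bcl11b was lower (-0.41, adjusted p 0.000678) and Satb1 higher (0.35, adjusted p 0.0185, lost in 3 of 11), with 6 lower and 3 higher unadjusted. These directions are mixed, and the list medians were -0.036, -0.018 and 0.015. In the same order, limma called 5.66%, 14.2% and 1.31% of all genes, and 16.7%, 24.4% and 11.4% had an unadjusted p under 0.05.

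Runx1, whose protein carries the Runt domain, had a log2 difference of -0.22 between AI-9-54 and AI-7-54 (adjusted p 0.157), -0.18 between AI-9-54 and AI-8-45 (adjusted p 0.444) and -0.036 between AI-8-45 and AI-7-54. Ikzf1, the gene of Ikaros, a known regulator of Dntt, stood at -0.006, 0.04 and -0.046 in the same comparisons. Tal1, the transgene's gene, stood at -0.20, -0.13 and -0.078, and its partner Tcf12, heterozygous in the mouse of origin, at -0.029, -0.13 and 0.10. None of these 4 genes passed limma's test in the model on all arrays without a replicate term. With a factor for the replicate set, Runx1 was lower between AI-9-54 and AI-7-54 (-0.26, adjusted p 0.000445) and between AI-9-54 and AI-8-45 (-0.18, adjusted p 0.0119), and it also passed with the replicate number as a block (adjusted p 0.00319 and 0.0407) and, against AI-7-54, in replicates 3 and 4 alone (adjusted p 0.0284). Tal1 passed between AI-9-54 and AI-7-54 among genes above the median level (adjusted p 0.0447), and Tcf12 between AI-9-54 and AI-8-45 with an intensity trend in the prior (adjusted p 0.0377). At an unadjusted p under 0.05, Runx1 and Tal1 were lower between AI-9-54 and AI-7-54, and Tcf12 was lower between AI-9-54 and AI-8-45 and higher between AI-8-45 and AI-7-54.

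Of 18 measured genes of immature thymocytes (21 listed), the stage at which Dntt and Rag are expressed, 4 were lower and 0 higher between AI-9-54 and AI-7-54 (2 higher and 7 lower at an unadjusted p under 0.05). They were the pre-T-cell receptor gene Ptcra (-0.53, adjusted p 0.00709), Arpp21 (-0.37, lost in 6 of 11 cases), the CD8 coreceptor gene Cd8b1 (-0.32, lost in 6 of 11) and Tdrd5 (-0.31, lost without AI-7-54 replicate 3). Between AI-9-54 and AI-8-45 0 passed, with 1 higher and 6 lower at an unadjusted p under 0.05. Between AI-8-45 and AI-7-54, Themis was higher (0.22, adjusted p 0.0386, lost in 8 of 11), with 1 higher and 3 lower unadjusted. Medians of the list were -0.076, -0.067 and -0.018 in these comparisons. In the same order, limma called 14.2%, 1.31% and 5.66% of all genes, and 24.4%, 11.4% and 16.7% had an unadjusted p under 0.05. Between AI-9-54 and AI-7-54, 7.29% of all genes were called lower.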

How the data were processed

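RNA of 11 samples was measured on 1-colour microarrays. The authors' deposited table holds 1 log2 value per probe set and array, per the submitters' processing notes made with RMA and Partek 6.6. The log2 scale was read from the values (3.23 to 13.8). For the array annotation, the genome build is not given in the sources used here. Precision is limited by how few arrays there are.

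The table has 41345 probe sets. GEO's annotation gives 1 symbol to 23521, several to 1814 and leaves 16010 unnamed here. Entrez identifiers brought 23328 of the 23521 up to date, and each of 22180 genes took its probe set with the highest mean. The 3 comparisons came from 1 model on all 11 arrays with limma 3.58.1 in R 4.3.3 (8 residual degrees of freedom, prior 4.14), two-sided, with Benjamini-Hochberg adjustment over all genes, and calls required an adjusted p under 0.05. The end-joining mean was planned over 7 factors and rests on 6, since Dclre1c was not measured. Named genes were all members, up to 4 called genes per related list and comparison, and 4 fixed regulator genes. Myb and Elf1 were added after their values were seen. The genes most and least like Dntt by Pearson's r were named without receptor segments, olfactory and vomeronasal receptors, small RNAs and predicted or clone symbols. Cell type markers were named outside these rules where called, and Gzma, Cd2 and Cd28 also where uncalled. Members and lists were chosen with earlier results of these data known. Alternatives covered scaling, dim-gene filters, probe set choice, variance prior, array weights, replicate terms, the groups in the fit and each array left out. On simulated data with 200 changed genes of 22180, changes of 0.5 on the log2 scale were recovered at 90% for AI-8-45 against AI-7-54 and at 94% for AI-9-54 against either, and changes of 0.25 at 38% for AI-8-45 against AI-7-54, 30% for AI-9-54 against AI-7-54 and 34% for AI-9-54 against AI-8-45. Of the simulated calls, 1.20% were false for AI-8-45 against AI-7-54, 7.43% for AI-9-54 against AI-7-54 and 3.53% for AI-9-54 against AI-8-45. The simulated noise held no separation of replicate sets. The adjusted threshold depends on how many genes change, and 1255, 3139 and 290 genes were called in the data, in the same order. Recovery with 200 changed genes therefore need not carry over to these comparisons. Recovery is averaged over genes of narrow and wide spread, so it does not hold for a gene of wide spread such as Dntt. Figures used matplotlib 3.10.9 in Python 3.11.15.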

Additional observations from a re-analysis of the deposited data

Results flagged for a closer look

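Prkdc on AI-8-45 replicate 4 had a level of 9.47, apart from the other 3 AI-8-45 arrays at 9.57. The gap took up 0.952 of the group's range, above Dixon's 95% critical value for 4 samples. It was the only one flagged of 16 groups of 4 arrays tested (8 members in AI-9-54 and AI-8-45), and chance flags about 1 in 20 such groups.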

How the results depend on the processing

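The 7 calls among the members kept their direction under every alternative run. Across 168 values of these calls, 153 stayed past the threshold, and none of the 15 lost changed sign. Dntt between AI-9-54 and AI-8-45 missed the threshold with only replicates 1 and 2 (-0.80, adjusted p 0.0642) and with only the 2 groups compared (-1.02, adjusted p 0.0855), and with 1 array left out it ranged from -1.17 to -0.83. Lig4 (in both comparisons of AI-8-45) and Xrcc6 (in both of AI-9-54) also missed it with only replicates 1 and 2, and Xrcc6 between AI-9-54 and AI-8-45 with only replicates 3 and 4. Between AI-8-45 and AI-7-54 Dntt passed with the replicate set as a factor (-0.47; relative to the end-joining factors -0.41, adjusted p 0.0261) and with the replicate number as a block (-0.47, adjusted p 0.0372). Same-numbered arrays of different compounds correlated at -0.023 to 0.45 in their deviations from group means (median 0.13), below the median of 0.31 for other numbers of the same set, so the numbers were not taken as pairs. The block moved the count of genes between AI-9-54 and AI-8-45 to 517, and passed Rag2 between AI-9-54 and AI-7-54 (-0.55) and between AI-9-54 and AI-8-45 (-0.64); it changed no other call of a member. Genes called between AI-9-54 and AI-8-45 numbered 290, against 436 among genes above the median level, 816 with the set factor, 6 and 143 within replicates 1 and 2 and within 3 and 4, 141 with only those 2 groups, and 128 to 257 with 1 array left out. Between AI-8-45 and AI-7-54 they numbered 1255, against 1949 with the set factor, 2 and 613 within the sets, and 540 to 1229 with 1 array left out. Between AI-9-54 and AI-7-54 they numbered 3139, against 593 within replicates 1 and 2. Fits within a set hold fewer arrays, and within replicates 1 and 2 AI-7-54 has replicate 1 alone.

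Uncalled values near 0 changed sign. With quantile normalization Xrcc4 was -0.0093 and Nhej1 -0.00033 between AI-9-54 and AI-8-45, Runx1 was 0.0013 between AI-8-45 and AI-7-54 (0.016 with array weights), and Ikzf1 was 0.047 between AI-9-54 and AI-7-54 (0.041 with only replicates 3 and 4). With only replicates 1 and 2, Prkdc was -0.038, Nhej1 -0.029 and Tal1 0.023 between AI-8-45 and AI-7-54, Nhej1 was -0.049 and Tcf12 0.017 between AI-9-54 and AI-7-54, and Xrcc4 was -0.036, Xrcc5 0.011, Nhej1 -0.020 and Ikzf1 -0.011 between AI-9-54 and AI-8-45. With 1 array left out, the ranges that crossed 0 were -0.042 to 0.083 for Prkdc, -0.078 to 0.047 for Runx1 and -0.13 to 0.0099 for Tal1 between AI-8-45 and AI-7-54, -0.0062 to 0.10 for Nhej1 and -0.037 to 0.014 for Ikzf1 between AI-9-54 and AI-7-54, and -0.011 to 0.037 for Xrcc4, -0.042 to 0.015 for Xrcc5 and -0.050 to 0.057 for Nhej1 between AI-9-54 and AI-8-45. The cause was not tested.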
